A study of Drosophila melanogaster with 36 samples.

Results

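The genes described are those that encode proteins of the mitochondrial ribosome of Drosophila melanogaster. They were chosen by name: all counted genes whose symbol, matched from the FlyBase ID, begins with mRpL or mRpS followed by a number. The rule found 72 of 17807 counted gene IDs, of which 47 carry a large-subunit (mRpL) and 25 a small-subunit (mRpS) symbol. A low-count filter kept 71 of them for testing. The one left out, mRpL53, had a count of 0 in each of the 8 libraries, which allows a level of up to 0.199 CPM (counts scaled to a common library total) in the shallowest and 0.0311 CPM in the deepest library. Its span overlaps those of AGO1 and CG33155. How reads in overlapping spans were counted is not given in the labels, and the limit covers counting error only, so that it would not hold if such reads were dropped.

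The mitochondrial ribosome translates the few messenger RNAs that mitochondrial DNA encodes, which are core subunits of the respiratory chain and of ATP synthase. Its ribosomal RNAs are transcribed from mitochondrial DNA, whereas its proteins are encoded in the nucleus, made in the cytosol and imported. Some of these proteins have counterparts in the bacterial ribosome and others are found only in mitochondria. Imaginal discs are growing epithelia, and growth in them is known to draw on mitochondrial translation: mRpL12 is required for the overgrowth that Cyclin D and Cdk4 drive in Drosophila.

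RNA came from sorted cells of the wing disc and the haltere disc of wandering third-instar larvae, the epithelial sacs from which the fly's wing and its balancing organ, the haltere, form. All 4 groups carried a uas-kash.GFP transgene, a label of the nuclear envelope, in a yw background, driven either by nub.gal4 (distal appendage cells) or by tsh.gal4 (proximal cells), and larvae were raised at 25 °C. Each disc thus gave a nub and a tsh group, with 2 libraries in each of the 4. The driver line differs between nub and tsh groups, so the domain and the driver cannot be told apart, and the labels do not say whether the replicates came from separate cohorts.

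Depth was 15110163 to 17705451 counts in 6 libraries, while haltere nub replicates 1 and 2 held 96525031 and 92342738, so depth and that group cannot be told apart. Ubx, which specifies the haltere, stood at 769 CPM or above in haltere and at 37.1 CPM or under in wing libraries, and nub at 1036 CPM or above in nub and at 38.7 CPM or under in tsh libraries. Antp and tsh also followed the labels. Wing tsh replicate 1 stood apart, with 5111 genes between 1 and 5 CPM against 1805 to 2315 in the other libraries. Its summed hemocyte markers stood at 30.8 CPM against 2.00 to 9.48 CPM elsewhere, and its fat body markers at 6.51 CPM against 0.375 to 1.04 CPM.

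The mitochondrial ribosomal protein genes were short, with a median span of 885 bases against 2426 for all tested genes. Mean levels of the 71 tested members, not corrected for length, ran from 3.83 to 31.2 CPM with a median of 9.34 CPM, and 65 reached 5 CPM. Only gene spans, introns included, were at hand, so levels were compared between members as CPM per kilobase of span. On that scale the highest were mRpL33 (X) at 28.2, mRpL12 at 27.7, mRpS7 (2L) at 24.8, mRpL22 (X) at 22.8 and mRpL30 at 21.9 CPM per kilobase. Of the tested members, mRpS35 at 5.15, mRpL13 at 3.23, mRpL21 at 3.19 and mRpS9 at 1.77 CPM per kilobase were the lowest. The span of mRpS9 is 13391 bases long and overlaps those of ArgRS-m and wtrw.

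The members at the ends of this order differ in how far the replicates spread. mRpS7 stood at 24.3 and 24.4 CPM in the haltere tsh, 18.9 and 23.8 CPM in the haltere nub, 23.6 and 26.9 CPM in the wing tsh and 26.2 and 28.5 CPM in the wing nub libraries. mRpL22 stood at 27.0 and 29.8 CPM in the haltere tsh, 22.6 and 25.2 CPM in the haltere nub, 26.4 and 28.8 CPM in the wing tsh and 26.6 and 24.8 CPM in the wing nub libraries. mRpS9 (3R) stood at 26.2 and 25.6 CPM in the haltere tsh, 18.6 and 22.9 CPM in the haltere nub, 23.2 and 25.5 CPM in the wing tsh and 26.0 and 21.9 CPM in the wing nub libraries. In all 3 genes haltere nub replicate 1 was the lowest library, and haltere nub replicate 2 overlapped other groups. mRpL33 stood at 14.4 and 14.0 CPM in the haltere tsh, 10.5 and 12.4 CPM in the haltere nub, 11.7 and 13.8 CPM in the wing tsh and 14.2 and 14.4 CPM in the wing nub libraries, and both its haltere tsh and both its wing nub libraries lay above the haltere nub and the wing tsh libraries, which overlapped each other.

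Counts on the 72 genes made up under 0.1% of each library. The share was 0.0859% and 0.0793% in haltere tsh, 0.0702% and 0.0720% in haltere nub, 0.0817% and 0.0815% in wing tsh and 0.0926% and 0.0885% in wing nub libraries. Both haltere nub libraries lay under all others and both wing nub libraries above all others. The group means were 0.0711% ± 0.00127 (SD, n = 2) in haltere nub and 0.0905% ± 0.00287 (SD, n = 2) in wing nub, a ratio of 1.27. Between the tsh groups the ratio of haltere to wing was 1.01. The exact binomial 95% interval was 0.0697% to 0.0708% in haltere nub replicate 1 and 0.0911% to 0.0940% in wing nub replicate 1, and such intervals cover counting error only. In bulk samples, fewer cells of a type and less RNA per cell cannot be told apart.

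**Figure D1:**
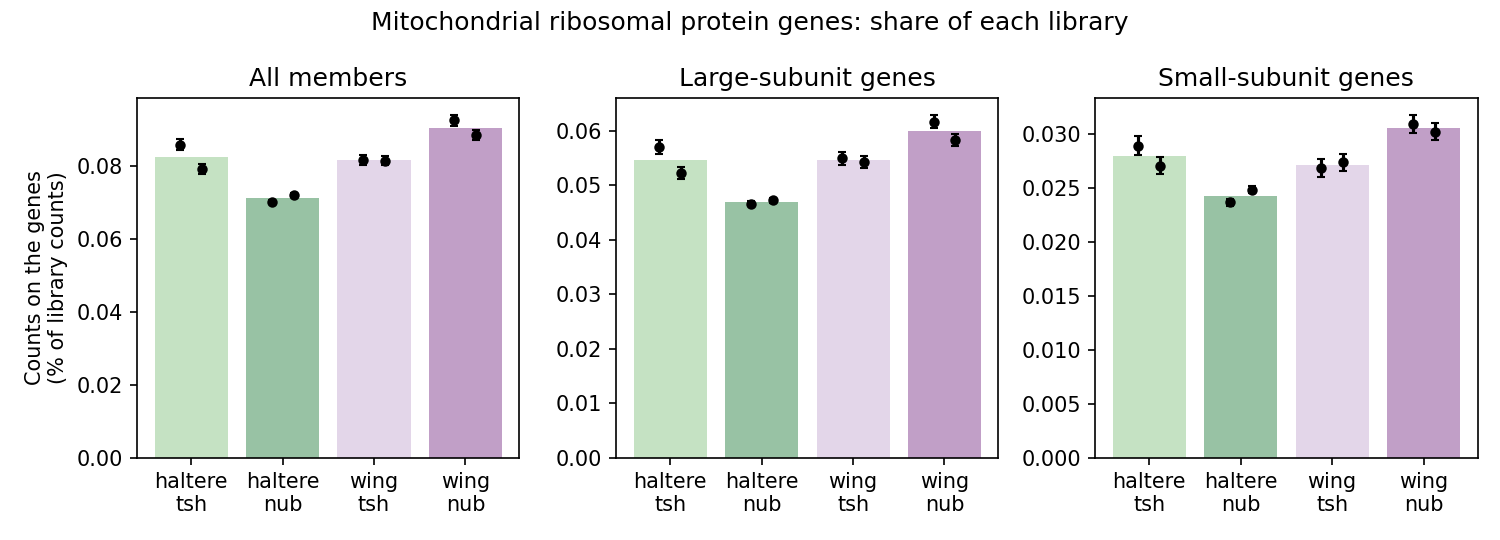
Counts on the mitochondrial ribosomal protein genes as a percent of all counts of a library, for all 72 genes and by subunit. Bars are means of 2 libraries, points are libraries with exact binomial 95% intervals, and haltere nub is the lowest and wing nub the highest group in each panel.

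Both subunits shared this order. The large-subunit genes held 0.0469% ± 0.000461 of counts in haltere nub, 0.0546% ± 0.00339 in haltere tsh, 0.0545% ± 0.000502 in wing tsh and 0.0600% ± 0.00237 in wing nub (SD, n = 2 each). The small-subunit genes held 0.0242% ± 0.000807, 0.0280% ± 0.00132, 0.0271% ± 0.000349 and 0.0306% ± 0.000498 in the same order. The tsh groups differed by less than the spread of the haltere tsh replicates in both classes. Gene by gene, 52 of the 71 tested members had their lowest group mean in haltere nub, against 3610 of all 11198 tested genes. The highest was in wing nub for 46 of the 71, against 2921 of the 11198. Both held for 34 members, or 47.9%, against 12.9% of all tested genes. No member had its highest mean in haltere nub, against 2937 of the 11198 tested genes.

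**Figure D2:**
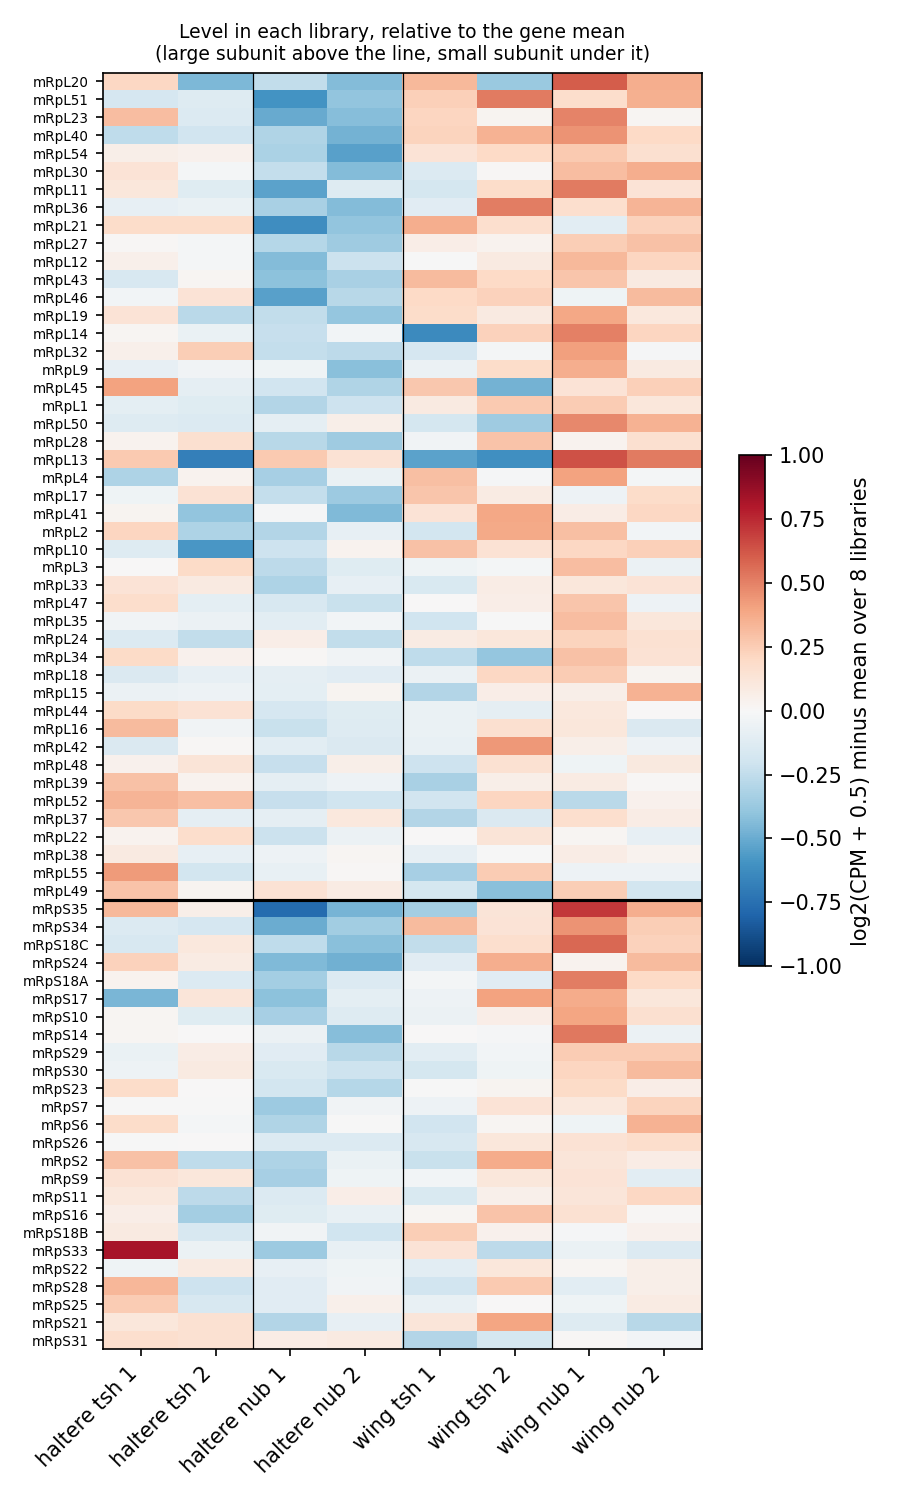
Level of each of the 71 tested members in each library, as log2(CPM + 0.5) minus the gene's mean over the 8 libraries, with large-subunit genes above the line and small-subunit genes under it. Rows are ordered within a subunit by the haltere to wing difference in nub cells, and most rows are blue in the haltere nub and red in the wing nub columns.

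The disc difference in distal cells was asked by comparing haltere nub with wing nub libraries. In this comparison 22 of the 71 members fell in the haltere and 0 rose (edgeR quasi-likelihood test, Benjamini-Hochberg adjusted p under 0.05), against 13.6% of all tested genes called lower and 9.72% called higher. At an unadjusted p under 0.05 the members split into 35 lower and 0 higher. The median log2 fold change of the members was -0.38, with an interquartile range from -0.59 to -0.20, against -0.01 over all tested genes, and 67 of 71 lay under 0. For 56 members both haltere libraries lay under both wing libraries, against 35.7% of all tested genes. For 1 member both haltere libraries lay above, against 3813 of the 11198 tested genes. The members that fell were 15 of 46 large-subunit and 7 of 25 small-subunit genes. Under upper-quartile scaling 19.7% of the members were called lower, against 10.6% of all tested genes. With a trend on gene span removed these shares were 18.3% and 12.03%. In DESeq2 they were 14.1% and 11.2%, so the members lay near the background there. The share of all tested genes also changed when 1 library was left out, so 13.6% is not the background for those fits. The count of 22 members moved to 14 under upper-quartile scaling, to 13 with a trend on gene span removed and to 10, with 0 higher, in DESeq2. It was 7 without haltere nub replicate 1, 7 without replicate 2, 6 without wing nub replicate 1 and 14 without replicate 2, and the median lay between -0.40 and -0.34 in the 8 fits that left out 1 library and kept the same genes. With the low-count filter applied again in each of those fits, the count ran from 1 to 26 and the median from -0.38 to -0.18. With any 1 nub library left out, the share of members called lower was then near or under that of all tested genes. With a tsh library left out, it lay above that of all tested genes. Set against the median of all tested genes, which moved too, the members' median lay -0.50 to -0.37 away in these 8 fits.

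Of the large-subunit genes, mRpL27 (2L, 4458595 to 4459638), the counterpart of a bacterial protein at the peptidyl transferase centre, had the smallest adjusted p. It stood at 19.0 and 18.6 CPM in the haltere tsh, 15.4 and 14.6 CPM in the haltere nub, 19.7 and 19.4 CPM in the wing tsh and 22.5 and 23.2 CPM in the wing nub libraries. The haltere nub libraries were the lowest and the wing nub libraries the highest, with both tsh groups between them and no overlap of the nub groups. It fell by 0.61 on the log2 scale (SE 0.11, edgeR adjusted p = 0.00214) in the haltere. mRpL30 (X, 4647871 to 4648646), whose span overlaps that of Torsin, stood at 18.4 and 16.4 CPM in the haltere tsh, 14.1 and 12.2 CPM in the haltere nub, 15.2 and 16.9 CPM in the wing tsh and 20.8 and 21.7 CPM in the wing nub libraries. It fell by 0.69 on the log2 scale (SE 0.13, edgeR adjusted p = 0.00266), again with no overlap between the nub groups. mRpL12 (3L, 8956791 to 8957584), the counterpart of the bacterial stalk protein that recruits translation factors, stood at 22.5 and 21.5 CPM in the haltere tsh, 15.9 and 18.6 CPM in the haltere nub, 21.7 and 23.1 CPM in the wing tsh and 27.4 and 25.3 CPM in the wing nub libraries. It fell by 0.61 on the log2 scale (SE 0.12, edgeR adjusted p = 0.00357). mRpL27, mRpL30 and mRpL12 were called, with the same direction, in the 17 alternatives tallied gene by gene here and in what follows. That tally leaves out the 8 fits with the filter applied again, of which 4 called 1 or 2 members in this comparison, so that at least 1 of the 3 genes was not called there.

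mRpL51 (2L, 8516753 to 8517380), a mitochondrion-specific protein whose gene overlaps PIG-U, stood at 7.11 and 7.31 CPM in the haltere tsh, 5.15 and 6.01 CPM in the haltere nub, 9.58 and 11.7 CPM in the wing tsh and 9.16 and 10.4 CPM in the wing nub libraries. It fell by 0.81 on the log2 scale (SE 0.18, edgeR adjusted p = 0.00703), and its haltere tsh libraries also lay under both wing tsh libraries. mRpL40 (3R, 11407918 to 11408756), another mitochondrion-specific protein, stood at 6.52 and 6.85 CPM in the haltere tsh, 6.31 and 5.54 CPM in the haltere nub, 9.27 and 10.2 CPM in the wing tsh and 11.0 and 9.14 CPM in the wing nub libraries. It fell by 0.76 on the log2 scale (SE 0.17, edgeR adjusted p = 0.00851), and both its haltere groups lay under both its wing groups. mRpL20, with a bacterial counterpart, stood at 7.51 and 4.57 CPM in the haltere tsh, 5.35 and 4.62 CPM in the haltere nub, 8.17 and 4.87 CPM in the wing tsh and 10.0 and 8.40 CPM in the wing nub libraries. It fell by 0.89 on the log2 scale (SE 0.28, edgeR adjusted p = 0.0395), while its tsh replicates spread widely in both discs. The call of mRpL51 was lost without haltere nub replicate 1 and without wing nub replicate 2, and that of mRpL40 without haltere nub replicate 2 and without wing nub replicate 1. That of mRpL20 was lost in 7 alternatives, among them the omission of any 1 nub library. The direction was kept in all of them.

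Of the small-subunit genes, mRpS35 (3L, 2780899 to 2782105), which encodes a mitochondrion-specific protein, had the largest change of all members in this comparison. It stood at 7.51 and 6.17 CPM in the haltere tsh, 3.24 and 4.12 CPM in the haltere nub, 4.54 and 6.49 CPM in the wing tsh and 9.92 and 7.73 CPM in the wing nub libraries. The nub groups did not overlap, and the wing nub libraries held more than all others. It fell by 1.26 on the log2 scale (SE 0.24, edgeR adjusted p = 0.00357) in the haltere, and the call was lost without wing nub replicate 1, at an edgeR adjusted p of 0.0508. mRpS34 (3L, 16348074 to 16348782), also mitochondrion-specific, with a span that overlaps Golgin104, stood at 4.67 and 4.57 CPM in the haltere tsh, 3.53 and 3.97 CPM in the haltere nub, 6.57 and 5.74 CPM in the wing tsh and 7.28 and 6.26 CPM in the wing nub libraries. It fell by 0.85 on the log2 scale (SE 0.21, edgeR adjusted p = 0.0151), with the haltere libraries of both domains under all wing libraries, and the call was lost without either haltere nub replicate or without wing nub replicate 1. mRpS30 (X, 15786047 to 15788288) stood at 30.0 and 32.9 CPM in the haltere tsh, 27.9 and 26.8 CPM in the haltere nub, 27.4 and 30.1 CPM in the wing tsh and 36.0 and 38.8 CPM in the wing nub libraries. It fell by 0.45 on the log2 scale (SE 0.10, edgeR adjusted p = 0.00851) and its nub groups did not overlap. Its call was lost when replicate 2 of haltere nub or replicate 2 of wing nub was left out. In human mitochondrial ribosome structures the counterparts of mRpS30 and mRpS18A lie in the large subunit, and the classes here follow the symbols alone.

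The other members that fell were mRpL1, mRpL11, mRpL19, mRpL23, mRpL36, mRpL43, mRpL46, mRpL50 and mRpL54 of the large and mRpS10, mRpS18A, mRpS24 and mRpS29 of the small subunit, by 0.45 to 0.80 on the log2 scale. At the other end stood 3 members of at least 5 CPM whose values in the nub groups were close. mRpS31 stood at 14.7 and 14.6 CPM in the haltere tsh, 13.8 and 13.9 CPM in the haltere nub, 10.6 and 11.5 CPM in the wing tsh and 13.2 and 12.8 CPM in the wing nub libraries, a log2 difference of 0.09 (SE 0.12, edgeR adjusted p = 0.644). mRpL55 stood at 8.36 and 5.31 CPM in the haltere tsh, 5.77 and 6.13 CPM in the haltere nub, 4.73 and 7.37 CPM in the wing tsh and 5.87 and 5.87 CPM in the wing nub libraries, a log2 difference of 0.02 (SE 0.26, edgeR adjusted p = 0.966). mRpS25 stood at 8.63 and 6.34 CPM in the haltere tsh, 6.59 and 7.44 CPM in the haltere nub, 6.75 and 7.18 CPM in the wing tsh and 6.93 and 7.61 CPM in the wing nub libraries, a log2 difference of -0.05 (SE 0.20, edgeR adjusted p = 0.879). None of the 3 was called, and a p above the threshold does not show equal levels.

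**Figure D3:**
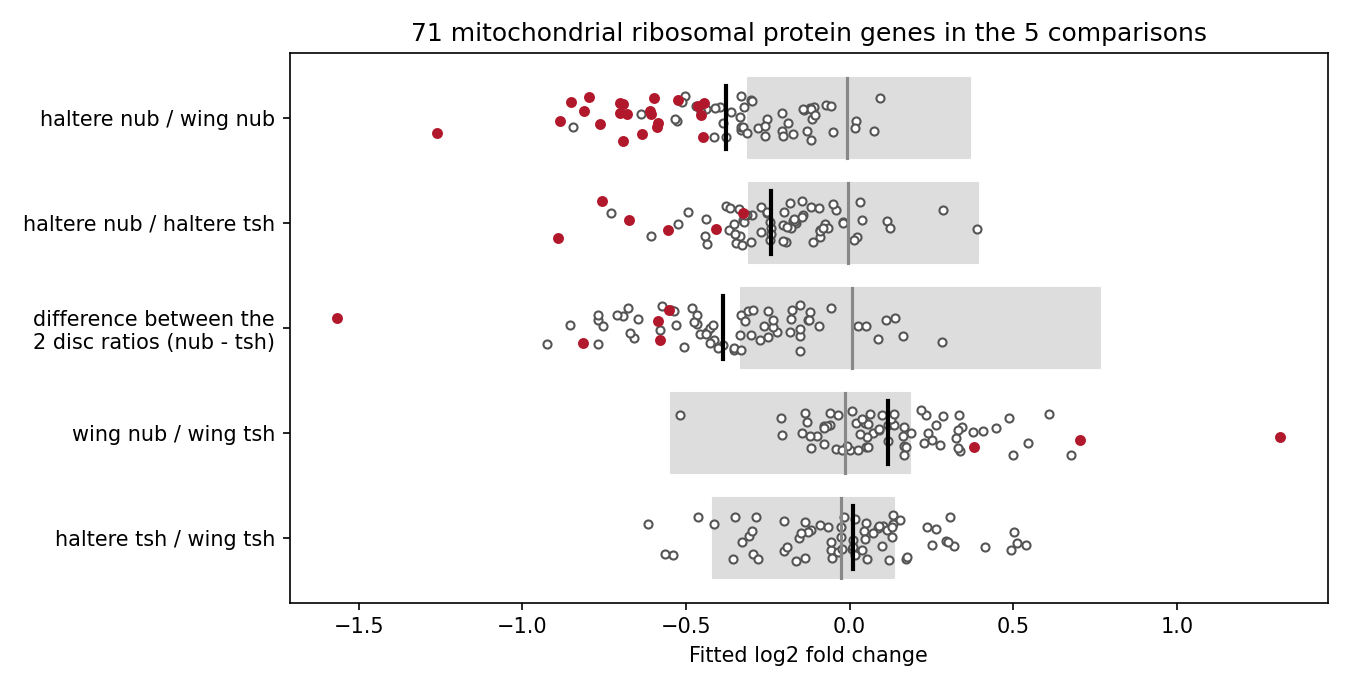
Fitted log2 fold change of each of the 71 tested members in the 5 comparisons; filled red points were called. Black bars are the members' medians, grey bars the medians and grey boxes the interquartile range of all tested genes, and the members' median lies left of the grey bar in the 3 upper rows.

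Markers of the domains and of other cell types moved between the nub groups too. Summed distal markers stood at 2410 and 2482 CPM in haltere nub and 3650 and 3528 CPM in wing nub libraries, with 3 of 4 called lower and 0 higher. Summed proximal markers stood at 3061 and 3094 CPM against 2154 and 2066 CPM, with 2 of 3 called higher and 0 lower. The summed myoblast markers stood at 228 to 232 CPM in haltere nub and 170 to 172 CPM in wing nub libraries, with 1 of 7 called higher (kirre) and 0 lower. The sum follows its most abundant genes, and 5 of the 7 markers had a log2 fold change under 0, with a median of -0.54 over the list. The defining myoblast gene twi stood at 0.640 to 1.47 CPM in these 4 libraries. Tracheal markers stood at 69.2 and 75.1 against 201 and 198 CPM, with btl higher, trh lower and dysf not called. Neuron and glia markers stood at 180 to 200 against 160 to 175 CPM, hemocyte markers at 6.52 and 7.05 against 2.00 and 9.48 CPM and fat body markers at 0.922 to 1.04 against 0.451 to 0.587 CPM. In the hemocyte and fat body lists eater was at 0 in wing nub replicate 1 and Lsp2 in both wing nub libraries. The part of these shifts in the members' difference was not tested.

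The same disc comparison in proximal cells set haltere tsh against wing tsh libraries. Here 0 of the 71 members were called in either direction by edgeR and 0 by DESeq2, against 3.26% of all tested genes. At an unadjusted p under 0.05 there were 5, of which 1 was higher and 4 lower. The median log2 fold change was 0.01 with an interquartile range from -0.15 to 0.13, against -0.03 over all tested genes, and 33 of 71 lay under 0. The sign of this median turned to -0.07 without haltere tsh replicate 1 and to -0.07 without wing tsh replicate 1, the library that stood apart. Without wing tsh replicate 2, 1 member was called higher. Beside these values, summed myoblast markers stood at 139 to 143 CPM in haltere tsh and 208 to 238 CPM in wing tsh libraries, with 5 of 7 called lower. The part of these markers in the members' values was not tested.

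The members at the ends of this comparison were not called. Lowest were mRpL10 at -0.62 (SE 0.24, edgeR adjusted p = 0.217), mRpL51 at -0.56 (SE 0.19, edgeR adjusted p = 0.148) and mRpL40 at -0.54 (SE 0.18, edgeR adjusted p = 0.156) in log2 fold change. mRpL10 (2L) stood at 4.87 and 3.43 CPM in the haltere tsh, 4.58 and 5.51 CPM in the haltere nub, 6.69 and 5.99 CPM in the wing tsh and 6.28 and 6.43 CPM in the wing nub libraries, with both haltere tsh libraries under both wing tsh libraries. Highest at 5 CPM or more were mRpS31 at 0.41 (SE 0.13, edgeR adjusted p = 0.137), mRpL37 at 0.32 (SE 0.15, edgeR adjusted p = 0.275) and mRpS35 at 0.31 (SE 0.25, edgeR adjusted p = 0.561). mRpL37 (3R) stood at 26.7 and 20.7 CPM in the haltere tsh, 20.7 and 23.7 CPM in the haltere nub, 17.9 and 19.9 CPM in the wing tsh and 24.9 and 23.2 CPM in the wing nub libraries, and its haltere tsh libraries lay above both wing tsh libraries. mRpS31 showed the same separation.

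**Figure D4:**
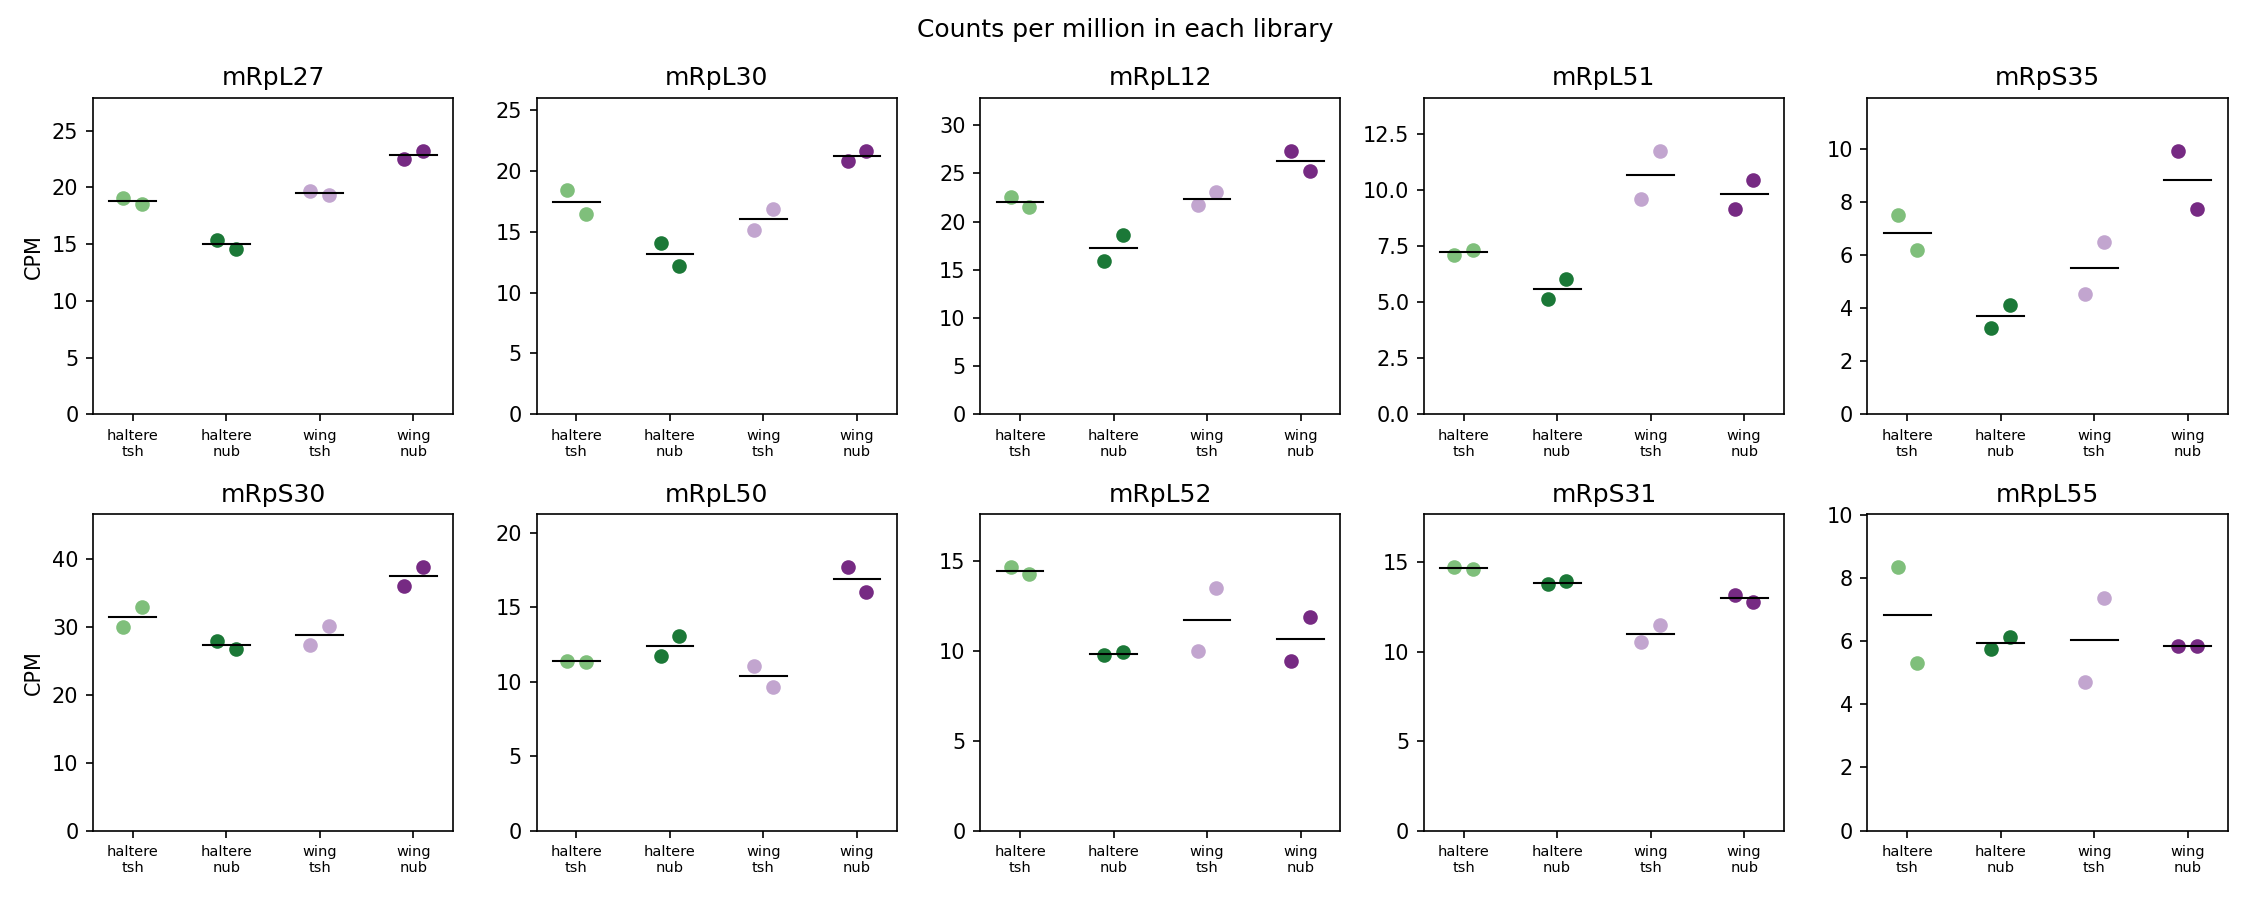
CPM of 10 members in each library (points) with the mean of the 2 libraries (lines), by group. mRpL27, mRpL30, mRpL12, mRpS35 and mRpS30 are lowest in haltere nub and highest in wing nub, mRpL50 is high in wing nub, mRpL52 is high in haltere tsh, and mRpS31 and mRpL55 lie close in the nub groups.

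Domains were compared within each disc. Myoblast markers moved between domains too, with 5 of 7 called lower and 1 higher in wing nub against wing tsh cells. In haltere nub against haltere tsh cells 4 of 7 were called lower and 1 higher. Their part in the members' values was not tested. In the wing disc, nub against tsh, 3 of the 71 members rose in nub cells and 0 fell, against 5.96% of all tested genes called higher and 7.88% called lower. The median log2 fold change was 0.12 with an interquartile range from -0.02 to 0.28, against -0.01 over all tested genes. Both nub libraries lay above both tsh libraries for 24 members, against 26.3% of all tested genes. At an unadjusted p under 0.05 there were 9 higher and 0 lower, and DESeq2 called 2 higher and 0 lower. The shares called are near or under the background.

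mRpL50 (3L, 7243080 to 7243933), a mitochondrion-specific large-subunit protein whose gene overlaps Neos, stood at 11.4 and 11.4 CPM in the haltere tsh, 11.8 and 13.1 CPM in the haltere nub, 11.1 and 9.68 CPM in the wing tsh and 17.7 and 16.1 CPM in the wing nub libraries. The wing nub libraries lay above all others, which ran from 9.68 to 13.1 CPM, and the gene rose with a log2 fold change of 0.70 (SE 0.14, edgeR adjusted p = 0.00647). mRpL13 (2L, 18858028 to 18859248), with a bacterial counterpart and a span that overlaps CG10602, stood at 4.54 and 2.11 CPM in the haltere tsh, 4.54 and 4.14 CPM in the haltere nub, 2.39 and 2.25 CPM in the wing tsh and 6.05 and 5.53 CPM in the wing nub libraries. It rose with a log2 fold change of 1.32 (SE 0.36, edgeR adjusted p = 0.0323), and haltere tsh replicate 2 lay under the wing tsh libraries. mRpS30 rose with a log2 fold change of 0.38 (SE 0.11, edgeR adjusted p = 0.0356). The call of mRpL50 was lost without wing nub replicate 1, that of mRpL13 in 5 alternatives and that of mRpS30 in 9. Without haltere nub replicate 1, haltere nub replicate 2 or wing nub replicate 2 the count was 1 each, without wing nub replicate 1 it was 0 and without wing tsh replicate 2 it was 5. The median was 0.06 when either replicate 1 of wing tsh or replicate 1 of wing nub was left out and 0.21 without wing tsh replicate 2. With a filter at 5 CPM, or only the libraries compared, 1 member was called. With the filter applied again and 1 library left out, the count ran from 1 to 10 and the median from 0.06 to 0.32.

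Other members at the ends of the wing comparison were not called. mRpL14 (X) stood at 6.19 and 5.82 CPM in the haltere tsh, 5.14 and 5.97 CPM in the haltere nub, 3.75 and 7.24 CPM in the wing tsh and 8.86 and 7.16 CPM in the wing nub libraries, a log2 fold change of 0.54 (SE 0.28, edgeR adjusted p = 0.236), with wing tsh replicate 1 far under replicate 2. mRpS35 had a log2 fold change of 0.68 (SE 0.25, edgeR adjusted p = 0.103). On the low side, mRpL21 had -0.21 (SE 0.23, edgeR adjusted p = 0.579), mRpL42 -0.21 (SE 0.20, edgeR adjusted p = 0.531) and mRpS18B -0.14 (SE 0.20, edgeR adjusted p = 0.683) in log2 fold change. mRpL42 (2R) stood at 7.57 and 8.51 CPM in the haltere tsh, 7.80 and 7.57 CPM in the haltere nub, 7.98 and 11.5 CPM in the wing tsh and 8.80 and 8.12 CPM in the wing nub libraries, and its wing tsh replicate 2 was its highest library.

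In the haltere disc, nub against tsh, 6 of the 71 members fell in nub cells and 0 rose, against 15% of all tested genes called lower and 9.96% called higher. The share called lower is thus under the background, although the median log2 fold change of -0.24, with an interquartile range from -0.34 to -0.09, lay under the -0.01 of all tested genes and 63 of 71 members lay under 0. With upper-quartile factors the median was -0.12 with 50 of 71 under 0, and the median of all tested genes moved to 0.12. In the 8 fits without 1 library and with the filter applied again it ran from -0.24 to 0.04, with the sign turned to 0.04 without haltere tsh replicate 1, where 32 of 71 lay under 0, to 0.01 without haltere nub replicate 1 and to 0.00038 without wing tsh replicate 2. Both nub libraries lay under both tsh libraries for 42 members, against 35% of all tested genes. At an unadjusted p under 0.05 there were 16 lower and 0 higher, and DESeq2 called 1 lower and 0 higher. The comparison shares the haltere nub libraries with the disc comparison in nub cells, so that a low value there lowers both.

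mRpS35 fell by 0.89 on the log2 scale (SE 0.24, edgeR adjusted p = 0.0209) in haltere nub against haltere tsh cells. mRpL21 (3L, 19253290 to 19255061), with a bacterial counterpart, stood at 6.32 and 6.34 CPM in the haltere tsh, 3.41 and 4.08 CPM in the haltere nub, 7.24 and 6.24 CPM in the wing tsh and 5.11 and 6.54 CPM in the wing nub libraries. Its haltere nub libraries lay under all others, and it fell by 0.76 on the log2 scale (SE 0.22, edgeR adjusted p = 0.0268). mRpL52 (2R, 7673721 to 7674400), mitochondrion-specific, stood at 14.7 and 14.3 CPM in the haltere tsh, 9.76 and 9.95 CPM in the haltere nub, 10.0 and 13.5 CPM in the wing tsh and 9.45 and 11.9 CPM in the wing nub libraries. Its haltere tsh libraries lay above all others, and it fell by 0.55 on the log2 scale (SE 0.17, edgeR adjusted p = 0.0321). mRpS24 (3R, 24162829 to 24163545), whose span overlaps TBC1d7, stood at 7.05 and 6.34 CPM in the haltere tsh, 4.25 and 4.12 CPM in the haltere nub, 5.46 and 7.80 CPM in the wing tsh and 6.10 and 7.50 CPM in the wing nub libraries. It fell by 0.67 on the log2 scale (SE 0.22, edgeR adjusted p = 0.0478), with both haltere nub libraries under all others. mRpL30 fell by 0.41 on the log2 scale (SE 0.13, edgeR adjusted p = 0.0378) and mRpL27 by 0.33 on the log2 scale (SE 0.11, edgeR adjusted p = 0.0478). Of the 17 alternatives tallied gene by gene the call of mRpL27 held in 1, that of mRpS24 in 5, that of mRpL30 in 6, that of mRpL21 in 10, that of mRpL52 in 11 and that of mRpS35 in 14. With the filter applied again, 6 of 8 fits called 0 members, that without wing tsh replicate 2 called 1 and that without replicate 1 called 8. The count was 1 under upper-quartile scaling, 0 without haltere tsh replicate 1, haltere nub replicate 1 or haltere nub replicate 2, 3 without haltere tsh replicate 2 and 3 without wing nub replicate 1.

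The members with the largest log2 fold changes at 5 CPM or more in the haltere disc were mRpL10 at 0.29 (SE 0.24, edgeR adjusted p = 0.423), mRpL50 at 0.12 (SE 0.14, edgeR adjusted p = 0.562) and mRpL24 at 0.12 (SE 0.15, edgeR adjusted p = 0.617), none of them called. mRpL24 (2L) stood at 12.1 and 11.2 CPM in the haltere tsh, 14.0 and 11.2 CPM in the haltere nub, 14.2 and 14.5 CPM in the wing tsh and 15.7 and 14.9 CPM in the wing nub libraries, so that of the haltere nub libraries replicate 1 exceeded both haltere tsh libraries and replicate 2 did not.

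Whether the disc difference itself differed between domains was tested by the interaction, the haltere to wing log2 fold change in nub cells minus that in tsh cells. It was negative and called for 5 of the 71 members and positive for 0, against 8.1% of all tested genes called negative and 7.32% called positive. At an unadjusted p under 0.05 there were 15 negative and 0 positive members, and DESeq2 called 3 negative and 0 positive. The median was -0.39 against 0.01 over all tested genes, and 64 of 71 lay under 0. The share called is under the background, while the median is not near that of all genes. The count was 2 under upper-quartile scaling, 3 with a filter at 5 CPM and 2 with a trend on gene span removed. Of the 7 myoblast markers 2 had a called positive interaction and 0 a negative one, and their part in the members' values was not tested.

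Of the 5 called interactions the largest was that of mRpS35, at -1.57 (SE 0.35, edgeR adjusted p = 0.0138), followed by mRpL30 at -0.82 (SE 0.18, edgeR adjusted p = 0.0145). mRpS30 had -0.59 (SE 0.15, edgeR adjusted p = 0.0240), mRpL27 -0.55 (SE 0.16, edgeR adjusted p = 0.0365) and mRpL12 -0.58 (SE 0.17, edgeR adjusted p = 0.0414). In all 5 genes the haltere nub mean was the lowest and the wing nub mean the highest of the 4 groups. Choosing genes by a negative interaction favours that order, so it adds no support. The interaction of mRpL30 was called in 14 of 16 alternatives tallied gene by gene, that of mRpS35 in 13, that of mRpS30 in 8, that of mRpL27 in 5 and that of mRpL12 in 2. Without haltere tsh replicate 1 the count was 0, without haltere nub replicate 1 or 2 it was 1 each, without haltere tsh replicate 2 or wing nub replicate 1 or 2 it was 2 each, without wing tsh replicate 1 it was 3 and without wing tsh replicate 2 it was 8. The median was -0.30 without wing tsh replicate 1. With the filter applied again the count ran from 0 to 4 and the median from -0.32 to -0.23.

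Further members at the ends of the interaction were not called. mRpL23 (3L), whose span overlaps CG8993, stood at 9.68 and 6.96 CPM in the haltere tsh, 5.30 and 5.60 CPM in the haltere nub, 9.02 and 7.87 CPM in the wing tsh and 11.1 and 7.84 CPM in the wing nub libraries, an interaction of -0.77 (SE 0.31, edgeR adjusted p = 0.113). mRpS16 (2R) stood at 10.1 and 7.54 CPM in the haltere tsh, 8.87 and 9.17 CPM in the haltere nub, 9.82 and 11.9 CPM in the wing tsh and 10.8 and 9.76 CPM in the wing nub libraries, an interaction of 0.11 (SE 0.26, edgeR adjusted p = 0.795). mRpL10 had 0.28 (SE 0.33, edgeR adjusted p = 0.584) and mRpL42 0.14 (SE 0.28, edgeR adjusted p = 0.753).

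Features that the naming rule did not use were set beside the disc difference in nub cells. The counts that follow stand against 13.6% of all tested genes called lower. Members with a bacterial counterpart numbered 44, of which 12 fell, with a median log2 fold change of -0.40. Of the 27 tested mitochondrion-specific members 10 fell, with a median of -0.31. By subunit the medians were -0.40 (large) and -0.33 (small). The members lie on all major chromosome arms, 21 on 3R, 16 on 3L, 12 on 2L, 12 on 2R and 11 on X. The 11 X-linked members had a median of -0.33, with 2 lower against 12.9% of all tested X-linked genes, and the 60 tested autosomal members one of -0.39, with 20 lower. Spans of 43 members overlap another gene, and without strand in the counting notes reads of such pairs could be split. The 29 members without an overlap had a median of -0.46 with 12 lower, against -0.33 and 10 lower for the 42 tested members with one, so that the direction was present in both. A trend of fold change on gene span accounted for -0.09 at the members' median span.

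In proximal cells the same classes gave medians near 0 in the disc comparison, between -0.03 and 0.12. The X-linked members stood at 0.12 with 0 of 11 under 0, against a median of 0.01 for all tested X-linked genes, and 0 were called. Their interquartile range ran from 0.07 to 0.13.

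The mRpS18 genes differ in their symbols only by a letter and encode related proteins, all named as small-subunit proteins. mRpS18A (3R) stood at 9.42 and 8.33 CPM in the haltere tsh, 7.15 and 8.30 CPM in the haltere nub, 9.09 and 8.49 CPM in the wing tsh and 13.3 and 10.7 CPM in the wing nub libraries, and it fell by 0.63 on the log2 scale (SE 0.17, edgeR adjusted p = 0.0198) in haltere against wing nub cells. mRpS18B (2L) stood at 6.72 and 5.59 CPM in the haltere tsh, 6.12 and 5.40 CPM in the haltere nub, 7.55 and 6.49 CPM in the wing tsh and 6.22 and 6.49 CPM in the wing nub libraries, a log2 difference of -0.14 (SE 0.20, edgeR adjusted p = 0.657). mRpS18C (3R) stood at 3.29 and 4.05 CPM in the haltere tsh, 3.05 and 2.66 CPM in the haltere nub, 3.07 and 4.25 CPM in the wing tsh and 5.81 and 4.46 CPM in the wing nub libraries, a log2 difference of -0.85 (SE 0.31, edgeR adjusted p = 0.0679). For mRpS18A and mRpS18C the nub groups did not overlap, and all groups of mRpS18B lay between 5.40 and 7.55 CPM. Whether the 3 genes differ from each other was not tested.

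A pair of mitoribosomal genes carry other names. The gene tko, the mitochondrial S12 protein known for its bang-sensitive mutants, stood at 26.7 and 26.5 CPM in the haltere tsh, 23.4 and 26.1 CPM in the haltere nub, 27.7 and 29.7 CPM in the wing tsh and 31.0 and 29.3 CPM in the wing nub libraries, a log2 difference of -0.29 (SE 0.10, edgeR adjusted p = 0.0698) between the discs in nub cells. The gene bonsai, the mitochondrial S15 protein, stood at 11.3 and 10.5 CPM in the haltere tsh, 8.67 and 7.87 CPM in the haltere nub, 8.90 and 11.2 CPM in the wing tsh and 9.92 and 10.0 CPM in the wing nub libraries, a log2 difference of -0.27 (SE 0.16, edgeR adjusted p = 0.255). In both genes the haltere nub libraries lay under the wing nub libraries, and neither was called.

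Other steps of mitochondrial gene expression were followed with lists of their genes, whose counts in haltere against wing nub cells stand against the same 13.6% of all tested genes called lower. Of 11 tested translation factors 3 fell in haltere against wing nub cells and 0 rose, with a median log2 fold change of -0.35. The elongation factor genes mEFTu1 and mEFG1 fell by 0.71 on the log2 scale (SE 0.11, edgeR adjusted p = 0.00104) and 0.75 on the log2 scale (SE 0.14, edgeR adjusted p = 0.00262). mEFTu1 stood at 63.7 and 57.7 CPM in the haltere tsh, 44.6 and 44.1 CPM in the haltere nub, 56.2 and 59.9 CPM in the wing tsh and 80.7 and 64.4 CPM in the wing nub libraries. Of 15 mitochondrial aminoacyl-tRNA synthetases 2 fell and 0 rose, a share near that of all genes, with a median of -0.25. They were TrpRS-m, which fell by 0.76 on the log2 scale (SE 0.17, edgeR adjusted p = 0.00760), and PheRS-m, which fell by 0.61 on the log2 scale (SE 0.16, edgeR adjusted p = 0.0178). GatC and waw of the translation factors were at a count of 0 in all 8 libraries and were not tested.

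Genes of mitochondrial DNA maintenance and transcription fell in 4 of 12 cases and rose in 0, with a median of -0.21. Among them bsf, which encodes a protein that binds mitochondrial RNA, stood at 80.7 and 80.4 CPM in the haltere tsh, 47.0 and 49.9 CPM in the haltere nub, 72.1 and 77.0 CPM in the wing tsh and 90.9 and 82.5 CPM in the wing nub libraries and fell by 0.84 on the log2 scale (SE 0.09, edgeR adjusted p = 5.93e-05). PolrMT, the mitochondrial RNA polymerase, fell by 0.45 on the log2 scale (SE 0.11, edgeR adjusted p = 0.0138). Of 10 import genes 4 fell and 0 rose, with a median of -0.33. The chaperonin gene Hsp60A stood at 159.9 and 154 CPM in the haltere tsh, 69.5 and 77.2 CPM in the haltere nub, 114 and 128 CPM in the wing tsh and 170.0 and 149.7 CPM in the wing nub libraries. Its haltere nub libraries lay under all others, and it fell by 1.12 on the log2 scale (SE 0.10, edgeR adjusted p = 1.50e-05). Hsc70-5, the chaperone of the import motor, fell by 0.61 on the log2 scale (SE 0.10, edgeR adjusted p = 0.00113).

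The RNAs that the mitochondrial ribosome reads and contains were measured as well. Of 13 messenger RNAs of mitochondrial DNA 2 fell and 0 rose, a share again near the 13.6% of all tested genes, with a median of -0.23. They were mt:ND2, which fell by 0.52 on the log2 scale (SE 0.10, edgeR adjusted p = 0.00476), and mt:ND4, which fell by 0.37 on the log2 scale (SE 0.11, edgeR adjusted p = 0.0318). Neither of the ribosomal RNAs, mt:lrRNA and mt:srRNA, was called. How far the library kit depletes ribosomal RNA in each sample was not measured, and mt:lrRNA varied between 9321 and 25296 CPM over the libraries. In the wing disc mt:lrRNA rose in nub against tsh cells, with a log2 fold change of 0.90 (SE 0.24, edgeR adjusted p = 0.0441).

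Within discs these lists moved as follows. In the haltere disc, nub against tsh, 4 of 11 translation factors, 3 of 15 synthetases, 2 of 12 maintenance genes, 1 of 13 mitochondrial messenger RNAs and 4 of 10 import genes fell and 0 rose, against 15% of all tested genes called lower. The share is under that background for the messenger RNAs and near it for the synthetases and the maintenance genes. Hsp60A fell by 1.10 on the log2 scale (SE 0.10, edgeR adjusted p = 7.54e-06) there, bsf by 0.73 on the log2 scale (SE 0.09, edgeR adjusted p = 9.37e-05) and TrpRS-m by 0.81 on the log2 scale (SE 0.17, edgeR adjusted p = 0.00438). mEFTu1 fell by 0.45 on the log2 scale (SE 0.11, edgeR adjusted p = 0.0120). In the wing disc, nub against tsh, 2 of 12 maintenance genes and 2 of 10 import genes rose and 0 fell, against 5.96% of all tested genes called higher, and 0 genes of the other 3 lists were called by edgeR. These were TFAM, which packages mitochondrial DNA, with a log2 fold change of 0.41 (SE 0.09, edgeR adjusted p = 0.0140), mtSSB with 0.49 (SE 0.14, edgeR adjusted p = 0.0323), Hsp60A with 0.40 (SE 0.10, edgeR adjusted p = 0.0184) and Tom70 with 0.38 (SE 0.11, edgeR adjusted p = 0.0389). In tsh cells none of these 5 lists had a gene called between the discs by edgeR.

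The interaction was negative and called for 2 of 11 translation factors, 2 of 15 synthetases, 4 of 12 maintenance genes, 5 of 10 import genes and 0 of 13 mitochondrial messenger RNAs, against 8.1% of all tested genes. The smallest adjusted p was that of Hsp60A, at -1.49 (SE 0.14, edgeR adjusted p = 4.95e-05). The elongation factor gene mEFTu1 had -0.77 (SE 0.16, edgeR adjusted p = 0.00919), TrpRS-m -1.09 (SE 0.24, edgeR adjusted p = 0.0130) and bsf -0.95 (SE 0.12, edgeR adjusted p = 0.000694). In these 4 genes the difference between discs in nub cells was thus more negative than in tsh cells, as it was for the 5 mitoribosomal genes.

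**Figure D5:**
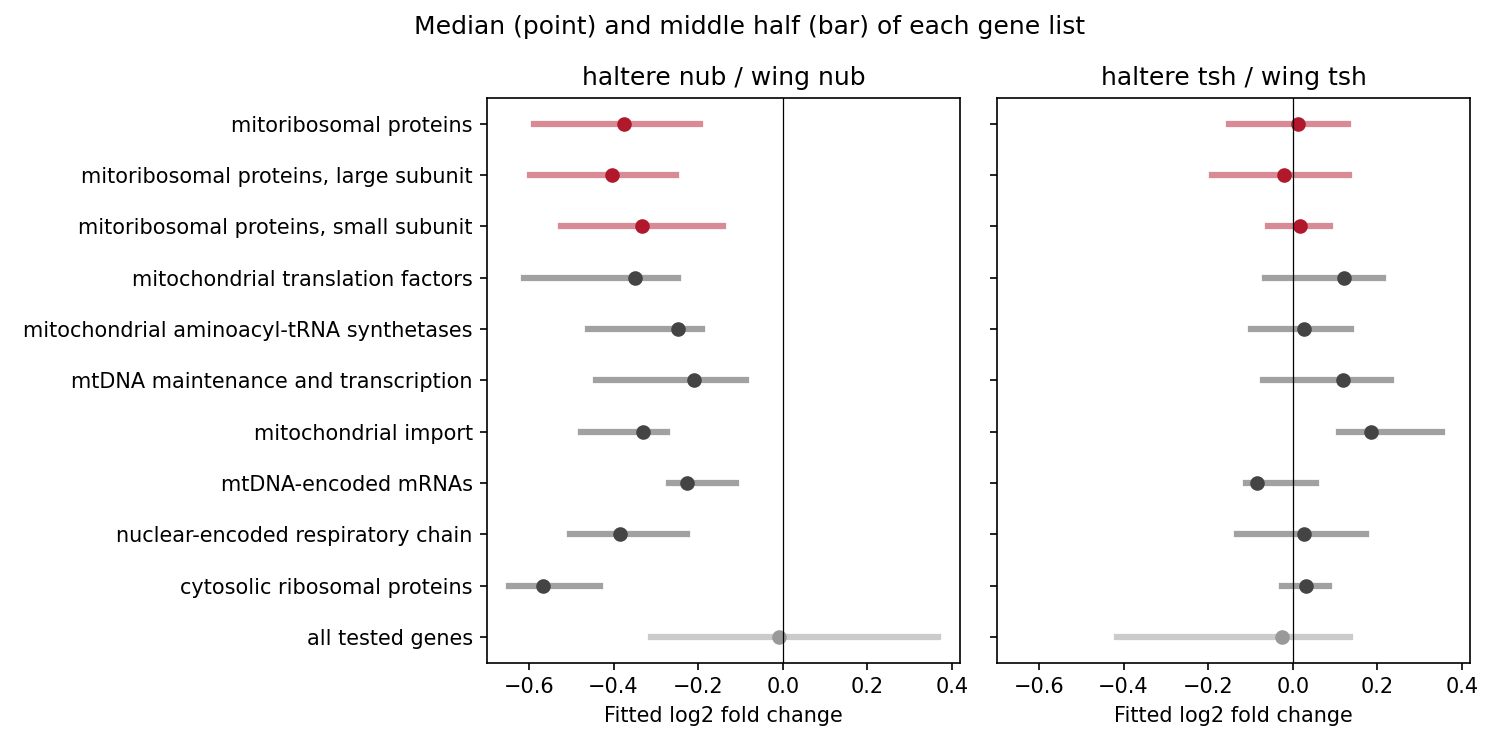
Median (point) and interquartile range (bar) of the fitted log2 fold changes between haltere and wing discs, in nub cells (left) and tsh cells (right), for the mitoribosomal genes (red), other gene lists (dark) and all tested genes (grey). All medians lie left of 0 in nub cells, and in tsh cells those of the lists lie between -0.08 and 0.19.

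Cytosolic ribosomal protein genes fell in 64 of 86 cases and rose in 0 in haltere against wing nub cells, with a median of -0.57. Nuclear-encoded respiratory chain genes fell in 31 of 74 cases and rose in 1, with a median of -0.39, close to the -0.38 of the mitoribosomal genes. Of all tested genes 13.6% were called lower there. In tsh cells 0 of the 86 were called, and of the 74 respiratory chain genes 1 was higher and 0 lower. The share of all tested genes called there in either direction was 3.26%. In the haltere disc, nub against tsh, these lists fell in 65 of 86 and 35 of 74 cases, against 6 of 71 mitoribosomal genes and 15% of all tested genes. In that comparison 0 cytosolic genes and 1 respiratory chain gene rose. The differences between lists were not tested.

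Among regulators of growth and of mitochondrial genes, Myc, a driver of ribosome production, stood at 207 and 213 CPM in the haltere tsh, 135 and 173 CPM in the haltere nub, 295 and 268 CPM in the wing tsh and 405 and 496 CPM in the wing nub libraries. The haltere nub libraries were the lowest and the wing nub libraries the highest, and Myc fell by 1.55 on the log2 scale (SE 0.13, edgeR adjusted p = 1.78e-05) in haltere against wing nub cells. Its interaction was -1.12 (SE 0.18, edgeR adjusted p = 0.00300). The gene srl, the fly PGC-1 homolog, stood at 176 and 182 CPM in the haltere tsh, 180.0 and 189.9 CPM in the haltere nub, 172 and 184 CPM in the wing tsh and 228 and 237 CPM in the wing nub libraries and fell by 0.33 on the log2 scale (SE 0.08, edgeR adjusted p = 0.0122). Cdk4 and foxo fell by 0.32 on the log2 scale (SE 0.10, edgeR adjusted p = 0.0354) and 0.45 on the log2 scale (SE 0.08, edgeR adjusted p = 0.00314). Ets97D, the fly counterpart of a mammalian nuclear respiratory factor subunit, had a log2 difference of -0.07 (SE 0.11, edgeR adjusted p = 0.694), and ewg, the counterpart of another, one of 0.06 (SE 0.08, edgeR adjusted p = 0.670). The list of 11 held 4 lower and 0 higher, against 13.6% of all tested genes called lower. In the haltere disc, nub against tsh, it held 4 lower and 1 higher, with a median log2 fold change of 0.05. Of all tested genes 15% were called lower and 9.96% higher there. No link between these genes and the mitoribosomal genes was tested.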

How the data were processed

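The authors deposited unnormalised counts, whole numbers with a different total in each library, for 17807 FlyBase gene IDs. Software listed in the submitters' processing notes, with no role, is HISAT2, Bowtie2, bcl2fastq and deepTools, and the build is dm6. Which counter and annotation were used, and whether strand was, is not given in the sources used here. Of the IDs, 17710 matched a symbol. Gene positions were read from a RefSeq gene table of Release 6, the assembly that dm6 also represents. The gene table also lists mRpS5 under an ID not among those counted, which was not analysed here, nor were the 17 ATAC-seq and 11 ChIP-seq samples.

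Genes were kept by filterByExpr (11198 kept), scaled by TMM and fitted with edgeR 4.0.16 in R 4.3.3 by a quasi-likelihood model with robust dispersions to 4 groups over 8 libraries, with two-sided contrasts. Benjamini-Hochberg adjustment ran over all tested genes, and genes with an adjusted p under 0.05 were called. CPM values are scaled by TMM. A standard error is the unshrunken log2 coefficient divided by the square root of F. With 2 samples a group, p-values reflect only how these samples varied, and that variation may be technical. Replicates differed beyond sampling noise (chi-square per gene 9.00 to 31.4).

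Members, lists and tests were chosen with earlier results of these data known. Members with values per library are those with the smallest adjusted p in each comparison (up to 8), the ends of each comparison at 5 CPM or more (3 each way), the 5 highest and 5 lowest per kilobase, the mRpS18 genes, tko and bonsai. For other lists, the 2 genes with the smallest adjusted p in haltere against wing nub cells are named, with Myc, srl, Ets97D and ewg. In their other comparisons only some of the called genes are named, and Cdk4 was added after its value was seen. Alternatives were other scalings, filters and fits, DESeq2 1.42.0, the replicate number as a block, a gene span trend, thinned haltere nub libraries and leaving out each library. The fit was also run on simulated counts with planted fold changes, which checked the code only. The simulated spread was lower than that of these data, so the run gives no error rate for them.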

Additional observations from a re-analysis of the deposited data

Results flagged for a closer look

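In 5 members the haltere to wing difference was not the same in nub and tsh cells by the test of the difference itself (edgeR interaction, Benjamini-Hochberg adjusted p under 0.05). The log2 interaction was -1.57 for mRpS35, -0.82 for mRpL30, -0.59 for mRpS30, -0.55 for mRpL27 and -0.58 for mRpL12, with the haltere lower than the wing in nub cells. Levels of mRpS35 fell from 9.92 and 7.73 CPM in wing nub to 3.24 and 4.12 CPM in haltere nub libraries. The share of members called, 5 of 71, does not exceed the 8.1% of all tested genes called negative. Among 16 alternatives tallied gene by gene, the call held in 14 for mRpL30 and 13 for mRpS35. It held in 8 for mRpS30, 5 for mRpL27 and 2 for mRpL12.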

How the results depend on the processing

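The members' median log2 fold change in haltere against wing nub cells was negative in all 25 alternatives. The counts of members called depended on the setting, as did the share of all tested genes called. In haltere against wing nub cells the 22 became 14 with upper-quartile factors, 10 in DESeq2 and 13 with the gene span trend removed, and ranged from 6 to 26 when 1 library was left out. In tsh cells the 0 ranged from 0 to 1. Between wing domains the 3 became 1 with the 5 CPM filter and 1 with only the libraries compared, and ranged from 0 to 5. In the haltere disc the 6 became 1 with upper-quartile factors and 1 in DESeq2, and ranged from 0 to 8. For the interaction the 5 became 2 with upper-quartile factors, 3 in DESeq2, 3 with the 5 CPM filter and 2 with the span trend removed, and ranged from 0 to 8. Upper-quartile factors moved the median of all tested genes by over 0.1, to 0.12 in the haltere disc and 0.15 in the interaction, where the members' medians became -0.12 and -0.23. They also turned the calls of all genes in haltere against wing nub cells from 1525 lower and 1089 higher to 1188 lower and 1605 higher. With the 5 CPM filter the interaction median was -0.22. The cause of these moves was not tested.

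The median in tsh cells, near 0, changed sign to -0.0444 with upper-quartile factors and -0.0348 with the 5 CPM filter, and ranged from -0.0741 to 0.105 without single libraries. The other medians then ranged from -0.40 to -0.34 (nub cells), 0.0555 to 0.214 (wing disc), -0.28 to -0.17 (haltere disc) and -0.46 to -0.30 (interaction). Leaving out single libraries with the low-count filter applied again, an alternative chosen after seeing the data, gave medians of -0.38 to -0.18, -0.0713 to 0.164, 0.0580 to 0.320, -0.241 to 0.0370 and -0.32 to -0.23 in nub cells, tsh cells, wing disc, haltere disc and interaction, and counts of 1 to 26, 0 to 2, 1 to 10, 0 to 8 and 0 to 4. It lowers the filter's group size to 1. Without wing tsh replicate 1, the library that stood apart, it tested 11299 genes, near the 11198 of the main fit, with a median of -0.38 in nub cells. In the other fits it tested 14662 to 14934 genes. Shares of counts became 0.0819% in wing tsh over kept genes, and 0.0734%, 0.0948% and 0.0852% in haltere nub, wing nub and wing tsh without cytosolic ribosomal protein genes.

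Uncalled members close to 0 changed sign. mRpS25 in nub cells took 0.0340, 0.0407 and 0.0338 with upper-quartile factors, the 5 CPM filter and the span trend removed, and ranged from -0.142 to 0.0336 without single libraries, with the sign turned without haltere nub replicate 1 and also without wing nub replicate 2. mRpL55 ranged there from -0.0237 (without haltere nub replicate 2) to 0.0630, and mRpL24 in the haltere disc from -0.0566 (without haltere nub replicate 1) to 0.268. mRpL42 ranged from -0.449 to 0.0843 in the wing disc and from -0.150 to 0.383 in the interaction, with the sign turned without wing tsh replicate 2. mRpS16 ranged from -0.0918 to 0.336 in the interaction, below 0 without haltere tsh replicate 2 or wing tsh replicate 2.

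With the replicate number as a block, 20, 0, 3, 5 and 4 members were called in nub cells, tsh cells, wing disc, haltere disc and interaction. The numbers share no label, and deviations of same-numbered libraries correlated at -0.25 to 0.11, so they were not taken as pairs. Thinning the haltere nub libraries left 19 members called in nub cells. At this depth the median standard error of a member's log2 fold change was 0.18 in nub cells.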
